A study of Mus musculus with 25 samples.

Results

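Polysomal RNA from kidney podocytes of Actn4 knock-in mice was set against that of control mice at 5 weeks of age (postnatal day 35). The comparison rests on 9 of the 25 arrays of the series, chosen by their titles: 5 control arrays, numbered 6 to 10, and 4 knock-in arrays, numbered 23 to 26. All mice, controls included, carried Tg:Col1a1-eGFPL10a, a transgene in which a promoter and enhancer element of collagen 1α1 drives a fluorescent form of the ribosomal protein L10a. Ribosomes carrying the tag are pulled down with their transcripts (translating ribosome affinity purification), so the transgene's own activity decides which cells are sampled. Knock-in mice carried in addition Actn4tm1.1Plk, a point-mutant allele. The sources used here do not give the number of mutant copies per mouse. The strain is given as C57/129sv and the sex as unknown for both groups. The same genotypes were arrayed at 2 weeks (day 14) and 44 weeks (day 300), with 4 arrays in each of those groups. Whether every array stems from its own animal is not stated in the labels. The p-values therefore measure only how far the arrays spread, which may be technical. The gene-level fits take that spread from all 25 arrays of the series, and the exact tests use the 9 arrays.

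Podocytes are the epithelial cells on the outside of the glomerular capillaries. Their interlocking foot processes are held open by bundles of actin filaments and joined by the slit diaphragm, the filter that keeps protein out of the urine. Actn4 encodes α-actinin-4, which crosslinks actin filaments and ties them to focal adhesions, and point mutations in the human gene cause an inherited focal segmental glomerulosclerosis. Podocytes do not divide, depend on mitochondrial and glycolytic energy supply, and respond to injury by rearranging their actin.

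Each value is the log2 signal of 1 probe set on 1 array, and a gene is represented by its brightest probe set on average. Of 17097 genes with such a probe set, 11968 remained after the dimmest 30% were left out. Actn4 was not analysed here, and the genotype labels have no check on the targeted gene. The cell type was checked on podocyte markers: over the 9 arrays the zinc finger factor Wt1 lay between 12.20 and 12.54, the surface sialomucin Podxl between 12.70 and 13.00, the actin-associated Synpo between 12.45 and 12.70 and nephrin (Nphs1) between 10.32 and 11.03. For all 4 genes the groups overlapped. The mean over 33 podocyte markers was 10.76 ± 0.07 (log2, SD, n = 5) in controls and 10.69 ± 0.07 (SD, n = 4) in knock-ins (exact two-sided permutation p = 0.17, adjusted over 13 array measures 0.18).

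Transcripts of other kidney cells moved with the genotype and have to be read beside each result. The mean of 24 endothelial markers was 6.72, 5.85, 6.09, 6.25 and 6.58 on control arrays 6 to 10 and 7.20, 6.80, 6.90 and 7.05 on knock-in arrays 23 to 26, so the groups did not overlap (exact permutation p = 0.016, adjusted 0.041). The mean of 22 proximal tubule markers ran from 8.68 to 9.95 in controls and from 9.59 to 10.41 in knock-ins (difference 0.85, exact permutation p = 0.048, adjusted 0.056), and that of 24 distal nephron markers from 6.73 to 7.54 and from 7.67 to 7.88 (difference 0.59, exact permutation p = 0.024, adjusted 0.044). Means of leukocyte markers (0.61 higher, n = 15), mesangial and smooth muscle markers (0.72 higher, n = 12), red cell markers (1.30 higher, n = 3) and parietal epithelium markers (0.31 higher, n = 10) also stood higher in knock-ins, and after adjustment only the leukocyte mean passed among these (exact permutation, adjusted p = 0.041). In RNA pooled from many cells, cell number and RNA per cell cannot be told apart. How transcripts of other cell types came into the pull-down was not tested.

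Control arrays 7, 8 and 9 held the lowest means of the endothelial, distal nephron, mesangial, leukocyte and red cell markers. For the proximal tubule control array 8 was the second highest control (9.70), and for the parietal epithelium control array 10 was lowest (7.49). Control array 10 had the highest correlation of the controls with each knock-in array. Over the 11968 genes it was 0.971, 0.972, 0.979 and 0.967 with knock-in arrays 23 to 26, against 0.962, 0.962, 0.955 and 0.963 for control array 6, so that the gap was small for knock-in array 26. Technical measures differed as well: the signal of nonspecific probes holding 20 G or C bases was 3.14 to 3.20 in controls and 3.29 to 3.50 in knock-ins, and the actin control's 3′ minus 5′ signal difference was 1.47 to 1.63 and 0.99 to 1.33 (exact permutation p = 0.0079 for each, adjusted 0.041, the smallest p that 5 against 4 arrays can give). The 18S ribosomal RNA signal was 1.56 higher in knock-ins (exact permutation p = 0.024, adjusted 0.044). Of the 13 measures, 7 passed after adjustment, none without any one of control arrays 7, 8 and 9 or the knock-in arrays (6 or 7 at an unadjusted exact p under 0.05). Leaving out 1 array also raises the smallest p that the exact test can give. The loss of all calls therefore does not show that those arrays carry the differences. Beyond the covariate fits given below, the part of the measures in the gene results was not tested.

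**Figure D1:**
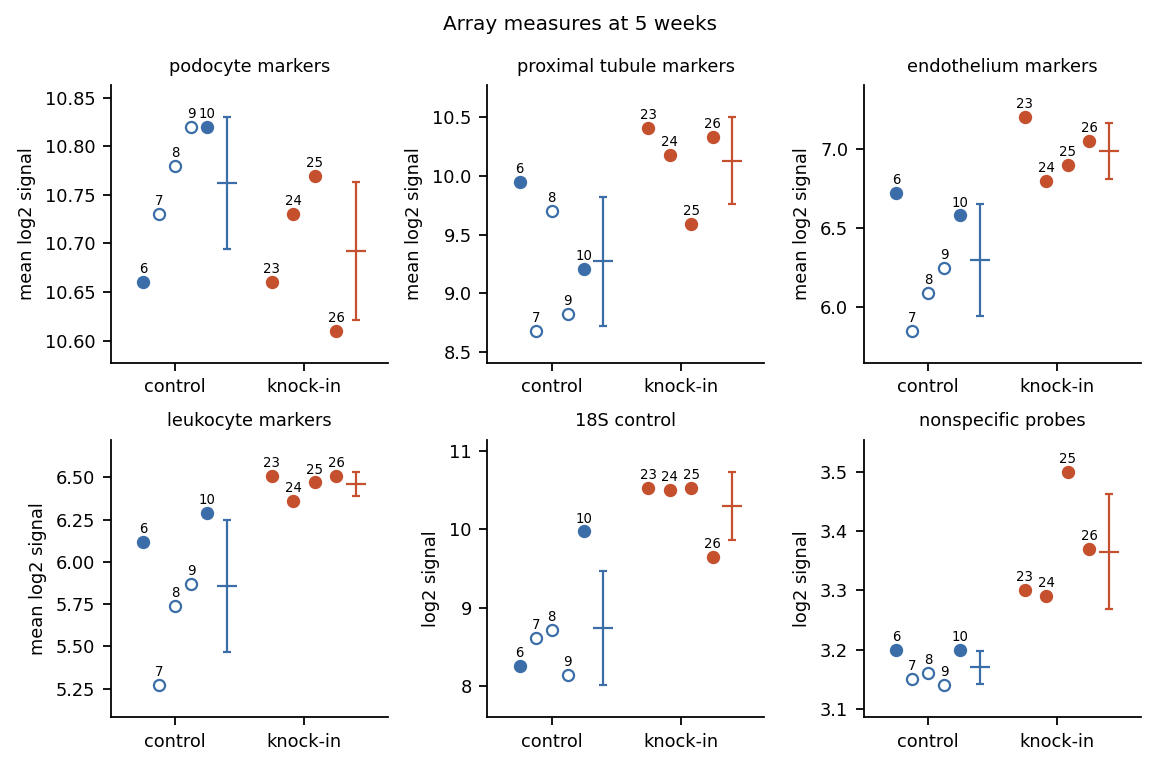
Array measures at 5 weeks, 1 point per array, in log2 units, for control and knock-in arrays; open symbols are control arrays 7, 8 and 9, and bars show mean ± SD. The podocyte marker mean lies within 10.61 to 10.82 in both groups, while the endothelial mean lies above 6.72 on every knock-in array.

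The knock-in arrays differed from the controls in a large part of the transcriptome. In limma fits on 6 group means, 22.0% of the genes tested passed at an adjusted p under 0.05: 1710 were higher in knock-ins (14.3%) and 928 lower (7.75%). Control and knock-in arrays did not overlap for 12% of genes, with the knock-ins above in 848 (7.09%) and below in 584 (4.88%), and 9.26% were both called and without overlap. The number called was 1386 without control array 7, 1483 without control array 9, 1480 without knock-in array 23 and 4077 without control array 10. It was 500 when the spread was taken from the 5-week arrays only. Centring each array on its median turned the 64.8% of calls that were higher into 49.9%, and quantile normalization into 56.0%, so the excess of rises depends on the scaling. The median log2 difference over all genes was 0.06 as deposited, 0.01 after quantile normalization and 0 after centring.

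The control arrays did not share these differences equally. Control array 10 lay within the range of the knock-in arrays, or beyond it, for 50.8% of the 1710 higher genes and 45.5% of the 928 lower ones. The same shares were 8.95% and 9.81% for control array 6, and between 1.17% and 3.57% for control arrays 7, 8 and 9. Without arrays 7, 8 and 9, 1 gene was called (0.00836% of the genes tested), at 2 remaining controls. Of the 2638 genes, 2136 (81.0%) kept their sign and at least 50% of their log2 difference, whose median size went from 0.62 to 0.41. The same share was 60.2% over all genes tested, and both sets of values share the knock-in arrays and 2 controls.

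Set against the 16 arrays of 2 and 44 weeks, a description added after the data were seen, the 5-week control mean often lay farther out than the knock-in mean. For the 1710 higher genes the median distance from the mean of the other ages was -0.53 in controls and 0.19 in knock-ins, and the control mean was the farther one for 1323 (77.4%). For the 928 lower genes the medians were 0.33 and -0.17, and the control mean was the farther one for 600 (64.7%). Over all genes tested the control mean was the farther one for 61.2%. The distance rested in part on control arrays 7, 8 and 9. With control arrays 6 and 10 alone the control medians were -0.29 for the higher genes and 0.14 for the lower ones, the second no farther out than the knock-ins.

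To describe genes beyond the tubule and endothelial RNA, the means of the tubule markers and of the endothelial markers of each array were added to the fit as covariates. In this fit 107 genes passed (0.894%), 103 higher (0.861%) and 4 lower (0.0334%) in knock-ins, and 104 of them were also called without covariates (0.869%). The limma adjusted p of the 107 genes in this fit ran from 0.0031 to 0.0489. Only 30 of the 104 had another probe set above the filter limit, and 32 of their 40 other probe sets went the same way. The number called rested on the arrays used: it was 3 without control array 6, and 45 and 28 without control arrays 8 and 9. Without each of knock-in arrays 23 to 26 it was 44, 19, 21 and 20, and without control array 10 it was 1742. With only the 5-week arrays in the fit 0 genes were called (647 at an unadjusted p under 0.05). Of the 2638 genes, 2045 (77.5%) kept their sign and at least 50% of their log2 difference, whose median size went from 0.62 to 0.44, and over all genes tested 60.5% did. With 2 other covariates, each used alone, few calls were left, while the sizes changed less. With the 18S signal 19 genes were called in limma fits and 96.9% of the 2638 kept at least 50%, against 76.7% of all genes. With the nonspecific-probe signal 0 were called (2448 at an unadjusted p under 0.05) and 96.1% kept at least 50%, against 72.8% of all genes. The median standard error of the 2638 genes rose from 0.168 to 0.206 and 0.231. When the 18S or the nonspecific-probe signal was added to the tubule and endothelial means, the sizes changed more. Then 68% and 51.8% of the 2638 kept at least 50%, against 55.9% and 44.8% of all genes. The median size of the 2638 went from 0.62 to 0.4 and 0.32.

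Among the genes called with the covariates, Trappc6a, a subunit of the TRAPP complex that tethers vesicles on the way to the Golgi, had the smallest p. It was measured at 6.99, 8.17, 7.23, 7.45 and 7.91 in controls and 8.58, 8.39, 8.79 and 8.70 in knock-ins. Every knock-in array was above every control. It rose by 1.07 (log2, SE 0.175, limma adjusted p = 0.0015), and the difference was 1.37 with the covariates (SE 0.182, limma adjusted p = 0.0031).

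Tdp1 encodes the phosphodiesterase that frees DNA from stalled topoisomerase I. Its values were 6.05, 6.39, 6.06, 6.12 and 6.92 in controls and 7.55, 7.24, 7.58 and 7.52 in knock-ins, without overlap, with control array 10 nearest to the knock-ins. It rose by 1.16 (SE 0.161), or 1.37 with the covariates. Prkd2, a protein kinase D that acts at the Golgi and downstream of diacylglycerol, was measured at 4.73, 5.58, 5.37, 4.73 and 5.30 in controls and 6.31, 6.17, 6.93 and 6.84 in knock-ins. The groups lay well apart, and Prkd2 rose by 1.42 (SE 0.185). It was the gene that still passed in limma on 2 controls without covariates, with a difference of 1.55.

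Mri1, an isomerase of the methionine salvage pathway, was measured at 6.44, 6.36, 6.86, 6.63 and 7.36 in controls and 8.08, 7.71, 8.26 and 8.16 in knock-ins. It rose by 1.32 (SE 0.167), with no overlap. B9d1, a protein of the ciliary transition zone, lay between 6.77 and 7.27 in controls and between 7.63 and 8.14 in knock-ins, and rose by 0.88. Pqbp1, a splicing-associated protein, lay between 8.17 and 8.99 and between 9.25 and 9.41 (rise 0.74), and Spata2l, a relative of the adaptor of the deubiquitinase CYLD, between 5.43 and 6.22 and between 6.54 and 6.87 (rise 0.96). All knock-in arrays lay above all controls for each of these.

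Smn1, needed to assemble spliceosomal ribonucleoproteins, and the membrane protein gene Tmem120b differed in overlapping ranges. Smn1 was 5.66, 6.55, 6.92, 6.21 and 5.97 in controls and 6.67, 6.84, 7.16 and 6.97 in knock-ins. Its rise of 0.65 became 1.19 with the covariates, and that of Tmem120b went from 0.83 to 1.27. These genes, Trappc6a, Tdp1, Prkd2, Mri1, B9d1, Pqbp1, Spata2l, Smn1 and Tmem120b, are the 9 (0.0752%) that passed in limma with the covariates after control arrays 7, 8 and 9 were left out.

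**Figure D2:**
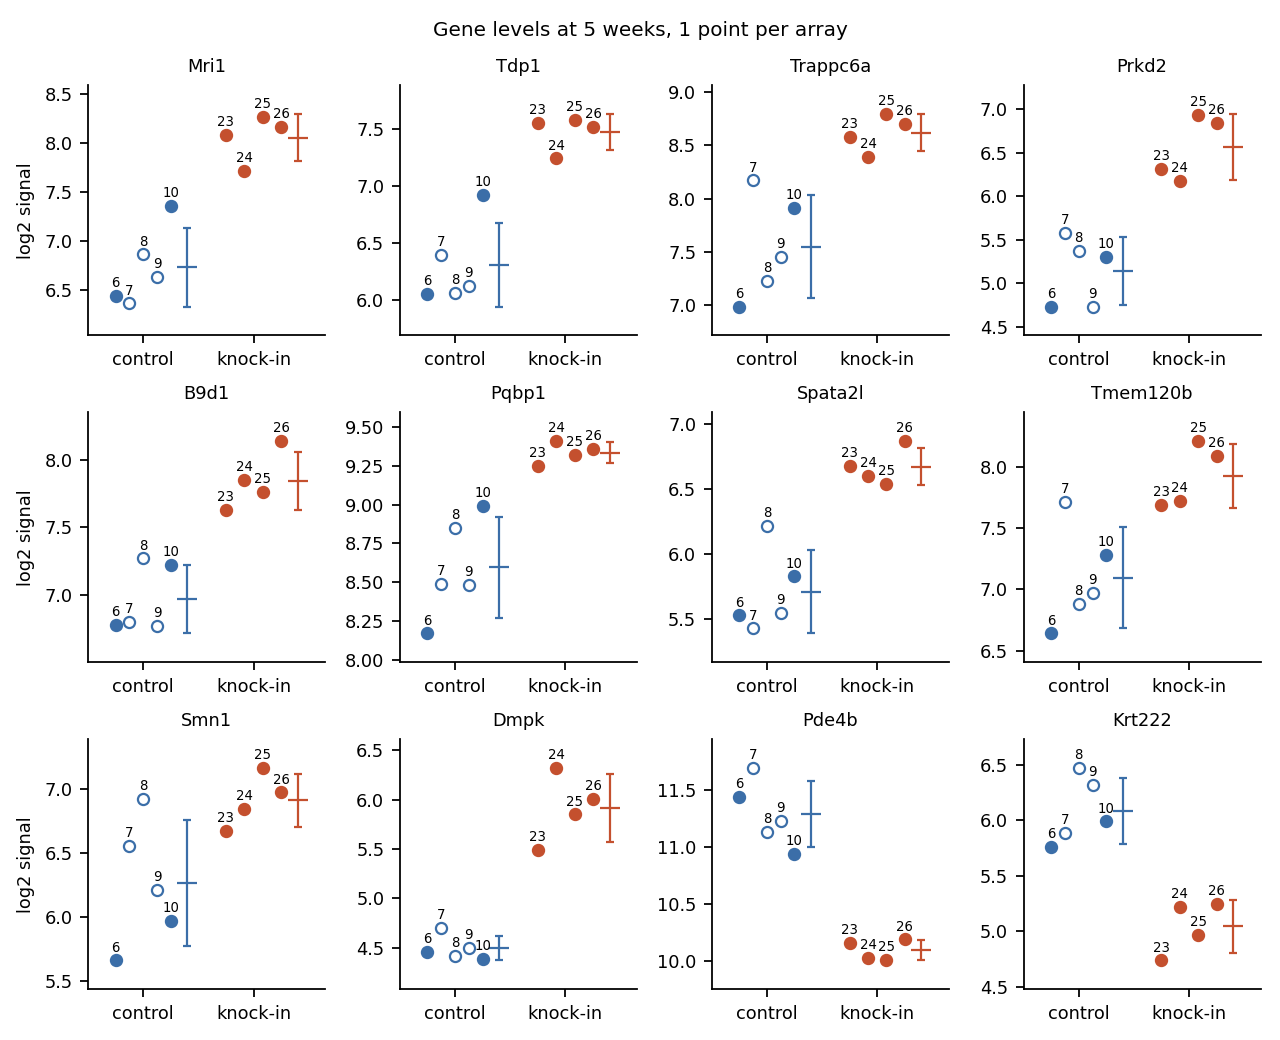
Levels of single genes at 5 weeks in log2 units, 1 point per array, control against knock-in, with mean ± SD; open symbols are control arrays 7, 8 and 9. Tdp1 lies between 6.05 and 6.92 in controls and between 7.24 and 7.58 in knock-ins, and Pde4b between 10.94 and 11.69 and between 10.01 and 10.19.

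Several of the other rises called with covariates touch the cytoskeleton or its signalling. Zyxin (Zyx), an adhesion protein that binds α-actinin, was measured at 7.37, 7.76, 7.60, 7.44 and 8.17 in controls and 8.37, 8.39, 8.44 and 8.66 in knock-ins. The groups did not overlap and it rose by 0.80 (SE 0.154, limma adjusted p = 0.0028). With the covariates the rise was 1.03 (SE 0.181, limma adjusted p = 0.012). Trip10, an F-BAR protein that binds Cdc42, rose by 0.92, with controls at 6.82 to 7.45 and knock-ins at 7.84 to 8.15. The kinase gene Dmpk lay between 4.39 and 4.70 in controls and between 5.49 and 6.32 in knock-ins, a difference of 1.42. Its control mean of 4.49 is below the filter limit of 4.603, which it passed through its knock-in arrays, so that its call is a description and its fold is uncertain. Phb, a scaffold protein of the inner mitochondrial membrane, rose by 1.36 and by 1.10 with the covariates, and Trap1, a mitochondrial chaperone, by 1.63 and 0.96. Ube2s, the ubiquitin-conjugating enzyme of the anaphase-promoting complex, rose by 1.18, and Rab25, a GTPase of recycling endosomes in epithelia, by 1.47.

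Falls called with the covariates were Pde4b, Krt222, Ccdc62 and Slc26a4. Pde4b, which breaks down cyclic AMP, was measured at 11.44, 11.69, 11.13, 11.23 and 10.94 in controls and 10.16, 10.03, 10.01 and 10.19 in knock-ins. Every knock-in array was below every control, and it fell by 1.19 (log2, SE 0.167, limma adjusted p = 0.00058). With the covariates the fall was 1.05 (SE 0.201, limma adjusted p = 0.023). Krt222, a keratin-like gene, was 5.76 to 6.47 in controls and 4.74 to 5.25 in knock-ins (-1.04, SE 0.201). Ccdc62 fell by 0.59 in overlapping ranges. Slc26a4, the anion exchanger pendrin of intercalated cells, is itself one of the distal markers behind the covariate: it was called there (-0.75) and did not pass without it (0.31).

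Falls without overlap that kept at least 50% of their size but did not pass with the covariates included the heterochromatin protein gene Bahd1, the orphan nuclear receptor Nr2c1, the Abl-family kinase Abl2, which binds actin, and the immune ligand gene Cd274. Bahd1 was 9.80 to 10.50 in controls and 9.34 to 9.53 in knock-ins (-0.73, SE 0.134). Nr2c1 was 6.40 to 7.29 and 5.50 to 5.99 (-1.17, SE 0.202). Abl2 and Cd274 differed by -0.69 and -0.87, and by -0.84 and -0.91 with the covariates.

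The counts of gene lists that follow stand against 14.3% rises and 7.75% falls over all genes tested, or 11.5% and 11.6% with arrays centred on their medians. Podocyte markers passed in both directions. Of 33 tested 4 rose and 5 fell (12.1% and 15.2%), with a median of -0.17 against 0.06 over all genes, and none was called with the covariates (median -0.08). The 4 rises and 5 falls became 3 and 11 with median centring. The small GTPase Rab3b, of vesicle release, was measured at 11.22, 11.25, 11.44, 11.18 and 12.01 in controls and 12, 11.97, 12.12 and 11.87 in knock-ins. Control array 10 lay among the knock-ins, as it did for the chloride channel protein gene Clic3 (11.51, 11.75, 12.14, 12.02 and 12.69, against 12.54, 12.74, 12.74 and 12.59). Rab3b rose by 0.57 and Clic3 by 0.63.

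Efnb1, the ephrin-B1 ligand found at the slit diaphragm, was 11.12 to 11.49 in controls and 10.80 to 11.10 in knock-ins, and fell by 0.45. Thsd7a, a foot process protein and an antigen of membranous nephropathy, was 11.59 to 11.98 and 11.17 to 11.37, and fell by 0.53. Foxc2, a forkhead factor that podocytes need, was 12.36, 12.36, 12.33, 12.32 and 12.07 in controls and 11.93, 12.02, 12.02 and 11.97 in knock-ins. It fell by 0.30 without overlap, and control array 10 was again the nearest. With the covariates the differences of Efnb1, Thsd7a and Foxc2 were -0.26, -0.28 and -0.25, and none was called.

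Of 24 slit diaphragm and polarity genes 3 rose and 5 fell (12.5% and 20.8%, median -0.16, and -0.06 with covariates), and median centring gave 3 and 8. Scrib, a polarity scaffold, rose by 0.85 without overlap, and the polarity adaptor Pard6a by 0.64 and the atypical kinase Prkcz by 0.72 in overlapping ranges. Fyn, the kinase that phosphorylates nephrin, fell by 0.46. Of 25 podocyte transcription factors 3 rose and 3 fell (12% each), which median centring turned to 2 and 6. Lmx1b, whose loss causes nail-patella syndrome, rose by 0.52 from a level at the filter limit (4.26 to 4.97, against 4.74 to 5.49).

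In the secreted and matrix list of the foot process, 4 of 26 genes rose (15.4%, near the share of all genes) and 3 fell (11.5%), which median centring turned to 4 and 5. The collagen IV chains of the glomerular basement membrane, Col4a4 and Col4a5, fell by 0.35 and 0.51 in overlapping ranges. Laminin β2 (Lamb2) was 8.02, 7.68, 8.24, 8.26 and 9.52 in controls and 9.07, 9.04, 9.53 and 9.11 in knock-ins. Control array 10 lay at the top of the knock-in range, and the rise of 0.84 was 0.42 without control arrays 7, 8 and 9, where it did not pass. Of 42 genes of inherited podocyte disease, 10 rose and 4 fell (23.8% and 9.52%); after median centring these numbers were 8 and 7. Col1a1, whose regulatory element drives the tag, was 10.43, 8.50, 8.68, 8.12 and 10.37 in controls and 10.48, 9.99, 10.26 and 10.52 in knock-ins. Its 3 low values are those of control arrays 7, 8 and 9, and its difference of 1.09 (limma adjusted p = 0.050) was -0.09 without them.

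Among actin crosslinkers and motors the list medians were near those of all genes once the covariates were added, and none of these genes was called there. Of 29 crosslinkers and bundlers 10 rose and 1 fell (34.5% and 3.45%), or 10 and 2 after median centring. The list median was 0.34, but -0.05 with the covariates and 0.06 without control arrays 7, 8 and 9. The paralogue Actn1 was 10.76, 10.30, 9.85, 9.87 and 10.17 in controls and 10.62, 10.79, 10.54 and 10.62 in knock-ins. The groups overlapped and it did not pass (0.46, SE 0.228, limma adjusted p = 0.149). Drebrin (Dbn1), which stabilizes filaments, was 9.38, 6.26, 8.51, 6.62 and 9.85 in controls and 11.08, 11.06, 10.55 and 10.87 in knock-ins. Its spread among controls was wide, with control arrays 7 and 9 lowest, and its rise of 2.77 went to 0.35 with the covariates.

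Filamin A (Flna), an orthogonal crosslinker, rose by 1.70 and had a difference of 0.94 with the covariates, and Lima1, which holds filaments in bundles, rose by 1.76 and had 0.38. Of 26 myosins 17 rose (65.4%) and none fell; median centring gave 15 rises and 1 fall. Their mean per array was 10.09, 8.87, 9.51, 9.00 and 10.09 in controls and 10.73, 10.65, 10.40 and 10.75 in knock-ins, without overlap. The median difference of the list was 1.03, 0.12 with the covariates and 0.51 without control arrays 7, 8 and 9. Myo1e, a class I myosin of the podocyte membrane and a disease gene, was 9.91, 9.19, 9.34, 9.02 and 10.28 in controls and 11.09, 10.91, 10.59 and 10.97 in knock-ins. All knock-ins lay above all controls, the rise was 1.34, and the value with the covariates was 0.42 and did not pass.

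Of 42 regulators of actin assembly 2 rose and 3 fell (4.76% and 7.14%, median -0.03), and median centring gave 2 and 7. Coro1b, a coronin that regulates the Arp2/3 complex, rose by 0.72, with control array 10 at 10.43 inside the knock-in range of 10.40 to 10.60. Arpc5, a subunit of that complex, was 11.05 to 11.43 in controls and 10.76 to 10.93 in knock-ins and fell by 0.40, and profilin-2 (Pfn2) fell by 0.49. In the focal adhesion list 9 of 35 genes rose and 2 fell (25.7% and 5.71%), with 6 and 2 after median centring. Talin (Tln1) rose by 0.93 with control array 10 (10.34) inside the knock-in range of 10.10 to 10.46, tensin (Tns1) by 0.75 without overlap, and the PDZ and LIM protein gene Pdlim5 fell by 0.77, though its most variable probe set gave 0.21.

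**Figure D3:**
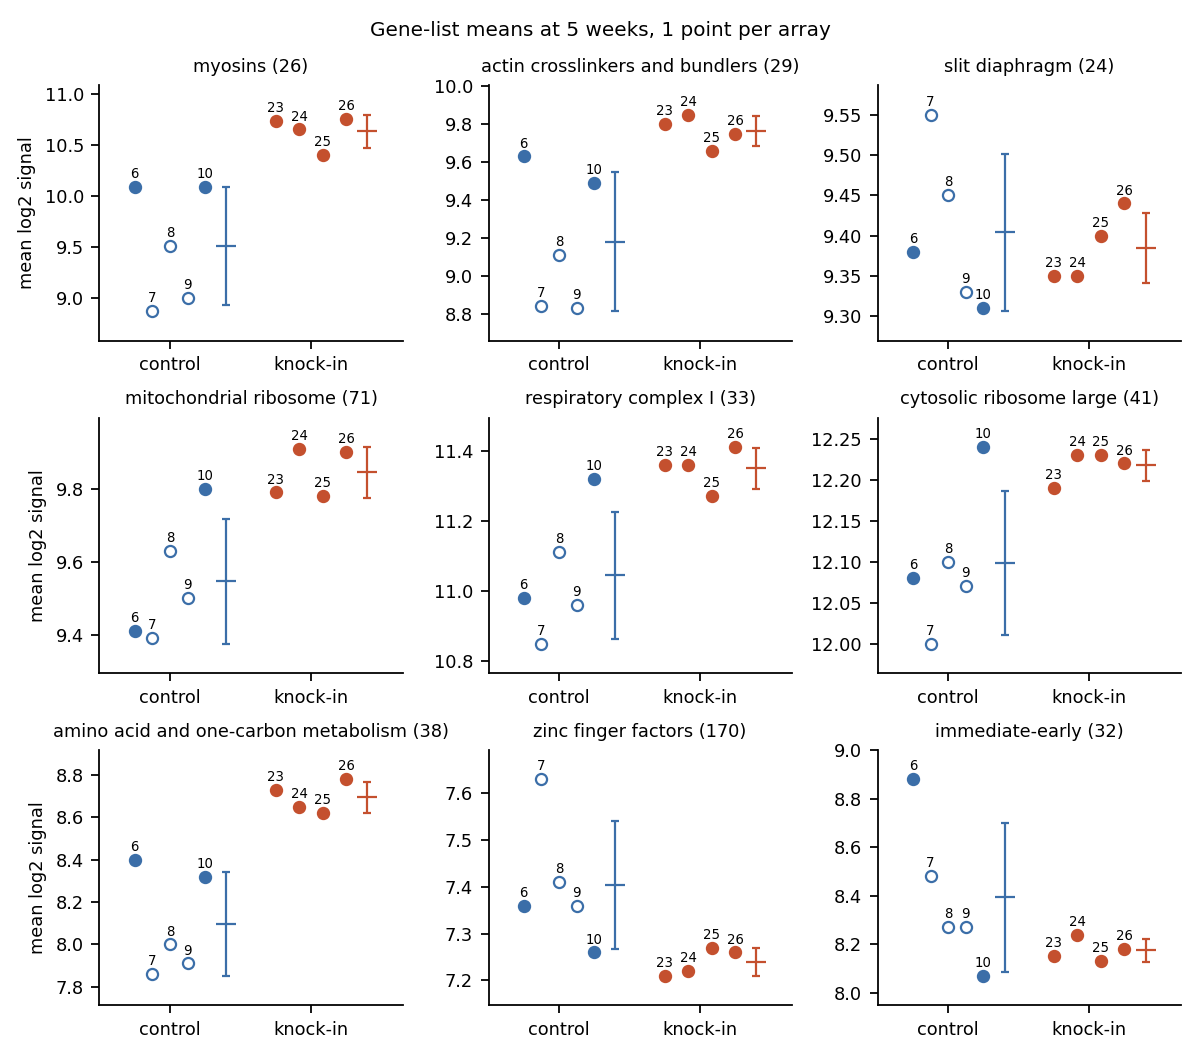
Mean log2 level of gene lists on each array at 5 weeks, control against knock-in, with mean ± SD; open symbols are control arrays 7, 8 and 9. The mitochondrial ribosome mean is 9.39 to 9.80 in controls and 9.78 to 9.91 in knock-ins, with control array 10 at the edge of the knock-in range.

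Mitochondrial ribosomal proteins, which translate the few proteins encoded in mitochondrial DNA, passed more often than the genes tested as a whole, and with the covariates nearly all of these calls were lost while the median hardly moved. Of 71 tested 29 rose and 3 fell (40.8% and 4.23%, against 14.3% and 7.75% of all genes), and median centring gave 22 rises and 4 falls. With the covariates 2 of the 71 were called. The median difference was 0.30, 0.29 with the covariates and 0.23 without control arrays 7, 8 and 9, against 0.06, 0.05 and 0.04 over all genes. The list mean per array was 9.41, 9.39, 9.63, 9.50 and 9.80 in controls and 9.79, 9.91, 9.78 and 9.90 in knock-ins. Control array 10 lay inside the knock-in range, and it did so for 19 of the 29 risen genes, where the other controls did so for none.

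Mrps11, of the small subunit, was 7.33, 7.54, 7.94, 7.92 and 8.85 in controls and 8.92, 8.86, 9.05 and 9.17 in knock-ins. The groups did not overlap, though control array 10 nearly reached the lowest knock-in. Mrps11 rose by 1.08 (SE 0.194, limma adjusted p = 0.0023). With the covariates the rise was 1.19 (SE 0.25, limma adjusted p = 0.037). Mrps21 was 10.14, 10.00, 10.14, 10.08 and 11.12 in controls and 11.11, 11.18, 11.16 and 11.30 in knock-ins. Here control array 10 lay with the knock-ins while the other 4 controls lay lower, and the rise was 0.89. Mrpl37 and Mrps7 rose by 0.82 and 0.77 without overlap, while Mrps23, with controls at 10.81 to 11.16 and knock-ins at 10.37 to 10.77, fell by 0.44. Mrpl18 (9.37 to 10.00, against 10.10 to 10.27) rose by 0.56, and Mrps27 (6.72 to 7.76, against 7.74 to 8.27) by 0.84.

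Nuclear genes for mitochondrial proteins often carry sites for the factors NRF1, GABPA of the ETS family and YY1 near their starts. The 250 bases upstream of the start (RefSeq, GRCm38.p6) were matched for 25 of the 29 risen genes and 38 of the other 42, and were searched on both strands for the ETS core CCGGAAG, the NRF1 core GCATGCG and the YY1 core ATGGCGG. No core lies within another, and they can share end letters only. The ETS core stood in 7 of 25 (28.0%) of the risen genes, 7 of 38 (18.4%) of the others and 14.6% of 9654 promoters of genes tested. The NRF1 core stood in 1 of 25 (4.0%), 6 of 38 (15.8%) and 6.03%, and the YY1 core in 1 of 25 (4.0%), 0 of 38 and 4.38%. The upstream windows of the 3 risen genes with the smallest p among those holding a match are shown to give the matches their context, with the matched letters in capitals (the YY1 core in reverse for Mrps11, the ETS core forward for Mrpl18 and in reverse for Mrps27).
Mrps11, chr7:78782881-78783130, plus strand: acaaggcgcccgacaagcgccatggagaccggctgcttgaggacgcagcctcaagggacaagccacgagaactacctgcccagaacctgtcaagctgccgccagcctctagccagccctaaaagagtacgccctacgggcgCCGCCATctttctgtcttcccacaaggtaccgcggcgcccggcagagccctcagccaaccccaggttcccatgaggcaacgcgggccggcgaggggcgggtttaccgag
Mrpl18, chr17:12916092-12916341, minus strand: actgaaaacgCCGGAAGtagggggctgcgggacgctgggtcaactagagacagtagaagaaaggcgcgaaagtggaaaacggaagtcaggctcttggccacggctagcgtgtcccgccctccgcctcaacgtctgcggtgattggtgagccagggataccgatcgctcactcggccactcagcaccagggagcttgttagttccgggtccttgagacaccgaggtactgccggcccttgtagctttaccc
Mrps27, chr13:99344536-99344785, plus strand: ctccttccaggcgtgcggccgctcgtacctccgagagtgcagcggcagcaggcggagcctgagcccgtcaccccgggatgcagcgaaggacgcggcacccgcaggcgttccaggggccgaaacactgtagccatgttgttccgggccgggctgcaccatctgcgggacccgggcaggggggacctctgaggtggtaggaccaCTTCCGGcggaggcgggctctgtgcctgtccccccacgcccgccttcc
A match is a description of these letters and not a measured binding site.

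Among nuclear genes of the respiratory chain most did not pass, and nearly all that did were rises. In complex I, which feeds electrons from NADH into the chain, 13 of 33 rose (39.4%, against 14.3% of all genes), none fell and 20 were not called, with 12 rises and 1 fall after median centring. The median was 0.24, and 0.21 with the covariates, where none of the 33 was called. Ndufa10 was 10.08, 9.38, 10.06, 9.50 and 10.57 in controls and 10.99, 11.02, 10.79 and 11.07 in knock-ins. It rose by 1.05 without overlap. Ndufv1 (1.09) and Ndufb3 (0.64) rose with control array 10 inside the knock-in range, at 11.61 against 11.56 to 11.86 and at 11.47 against 11.42 to 11.61.

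In complexes II to IV 9 of 28 genes rose (32.1%, or 7 after median centring), 1 fell and 18 were not called. In the ATP synthase 7 of 16 rose (43.8%, or 5 after median centring), none fell and 9 were not called. Cox6b1, of cytochrome oxidase, rose by 0.52 (11.66 to 12.25, against 12.33 to 12.45) and was the one gene of these complexes and complex I called with the covariates, at 0.54. Uqcrc1 of complex III rose by 1.16, and the ATP synthase genes Atp5o and Atp5j2 by 0.57 and 0.59. In the import and chaperone list 10 of 33 rose (30.3%, or 7 after median centring) and 1 fell (median 0.23, and 0.23 with covariates). Timm50 of the inner membrane translocase rose by 1.20 and the protease gene Spg7 by 1.39. Coq8b and Coq6, of coenzyme Q synthesis and both podocyte disease genes, rose by 1.47 and 0.84, and Coq8b was called with the covariates (1.36).

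The medians of the cytosolic ribosome were close to that of all genes. In the large ribosomal subunit 10 of 41 genes rose (24.4%) and 1 fell (median 0.07), in the small subunit 6 of 24 rose (25.0%) and none fell (median 0.09), and median centring gave 9 and 3, and 3 and 1. Rpl23a was 11.84, 11.87, 11.98, 11.87 and 12.65 in controls and 12.71 to 12.76 in knock-ins. Control array 10 stood next to the knock-ins and apart from the other controls, as it did for Rpl19 (12.86, against 12.17 to 12.34 in the other controls) and Rps9 (12, against 11.54 to 11.63). The rises were 0.69, 0.51 and 0.47. Among translation factors 7 of 43 rose and 5 fell (16.3% and 11.6%), which median centring turned to 4 and 7, and Eif3d, a cap-binding subunit of eIF3, rose by 1.26 without overlap.

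Of 17 tRNA synthetases 5 rose (29.4%; 3 after median centring), including those for serine (Sars, 1.12) and alanine (Aars, 0.83), with a median of 0.33 that was 0.11 without control arrays 7, 8 and 9. Of 43 proteasome genes 12 rose and 3 fell (27.9% and 6.98%), with 11 and 4 after median centring. Psmg2, an assembly chaperone, lay between 8.43 and 8.75 in controls and between 8.89 and 9.23 in knock-ins, without overlap, and rose by 0.49. Psmd9, an assembly factor of the 19S cap, rose by 0.85 on the probe set used, and had -0.22 when all its probe sets were averaged.

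In metabolic lists, some of them for pathways that are strongest in the tubule, most genes did not pass and nearly all that did were rises. Of 38 genes of amino acid and one-carbon metabolism 15 rose (39.5%, against 14.3% of all genes), none fell and 23 were not called. Median centring gave 12 rises and 0 falls. The list mean was 7.86 to 8.40 in controls and 8.62 to 8.78 in knock-ins, without overlap. Its median was 0.43, 0.23 with the covariates and 0.25 without control arrays 7, 8 and 9. Prodh2, a hydroxyproline dehydrogenase, was 6.11, 5.91, 6.19, 6.34 and 6.88 in controls and 7.96, 7.87, 7.87 and 7.91 in knock-ins. It rose by 1.61 without overlap, and the tryptophan-breakdown gene Haao by 2.18, with differences of 1.10 for each with the covariates.

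In the citric acid cycle list 10 of 26 genes rose (38.5%, or 7 after median centring), 1 fell and 15 were not called. Idh2 there rose by 0.69 (-0.32 on its most variable probe set). In glycolysis 7 of 19 rose (36.8%, or 6 after median centring), 1 fell and 11 were not called. The medians were 0.28 and 0.41, and 0.09 and 0.13 with the covariates, which left 1, 1 and 0 genes called in the amino acid, citric acid cycle and glycolysis lists. Of 37 redox genes 9 rose (24.3%; 5 after median centring) and none fell, among them the glutathione transferase Mgst3 (1.28) and the lipid peroxide reductase Gpx4 (0.84). Of 58 lysosome and autophagy genes 18 rose and 4 fell (31.0% and 6.9%), with 13 and 6 after median centring. Atg2a, a lipid transfer protein of the growing autophagosome, was 6.32, 5.92, 6.75, 6.17 and 7.99 in controls and 8.27, 8.27, 8.30 and 8.09 in knock-ins. It rose by 1.60 without overlap, with control array 10 the highest of the controls, and the protease cathepsin D (Ctsd) rose by 0.77.

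Other lists held more falls than rises. Of 170 zinc finger factors 7 rose and 23 fell (4.12% and 13.5%), and median centring gave 5 rises and 36 falls, with a list median of -0.20 that was -0.09 with the covariates. The list mean was 7.36, 7.63, 7.41, 7.36 and 7.26 in controls and 7.21, 7.22, 7.27 and 7.26 in knock-ins, where control array 10 again lay inside the knock-in range. Zfp512 fell by 0.76 and Zfp60 by 0.98 without overlap, and Zfp37 by 0.95. Of 75 ubiquitin ligases 5 rose and 13 fell (6.67% and 17.3%, against 14.3% and 7.75% of all genes), which median centring turned to 4 and 20, with Fbxo28, an F-box protein, at -0.45 and Mdm2, the ligase of p53, at -0.51 (0.47 on its most variable probe set).

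Of 38 genes of endoplasmic reticulum folding 3 rose and 6 fell (7.89% and 15.8%), with 1 and 7 after median centring. The protein disulfide isomerase P4hb was 11.57 to 12.01 in controls and 11.34 to 11.55 in knock-ins and fell by 0.39, and the co-chaperones Dnajc3 and Dnajb9, targets of the unfolded protein response, fell by 0.35 and 0.43, all without overlap. With the covariates they were -0.27, -0.30 and -0.28 and the median of the list was 0.01. Of 32 immediate-early genes none rose and 4 fell (12.5%), or 6 after median centring. Egr1, induced by growth and stress signals, was 12.04, 11.65, 11.07, 11.04 and 10.88 in controls and 10.28, 10.52, 10.31 and 10.74 in knock-ins, and fell by 0.87. Control array 6 held the highest value, and the antiproliferative gene Btg2 (fall of 0.63) was also highest there, at 8.86.

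Of 23 kidney injury genes 7 rose (30.4%) and none fell, with a median of 0.58 that was 0.35 with the covariates and 0.23 without control arrays 7, 8 and 9. Clusterin (Clu), a secreted chaperone, was 9.04, 8.53, 9.03, 9.22 and 9.81 in controls and 10.08, 9.84, 9.88 and 9.87 in knock-ins. It rose by 0.79 without overlap. The TWEAK receptor gene Tnfrsf12a rose by 0.70 and galectin-1 (Lgals1) by 0.56, with control array 10 inside the knock-in range for both, at 8.39 and 11.37. Nfatc1, a calcium-driven transcription factor, was 7.63 to 8.34 in controls and 6.96 to 7.22 in knock-ins and fell by 0.75, with 0.17 on its most variable probe set.

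**Figure D4:**
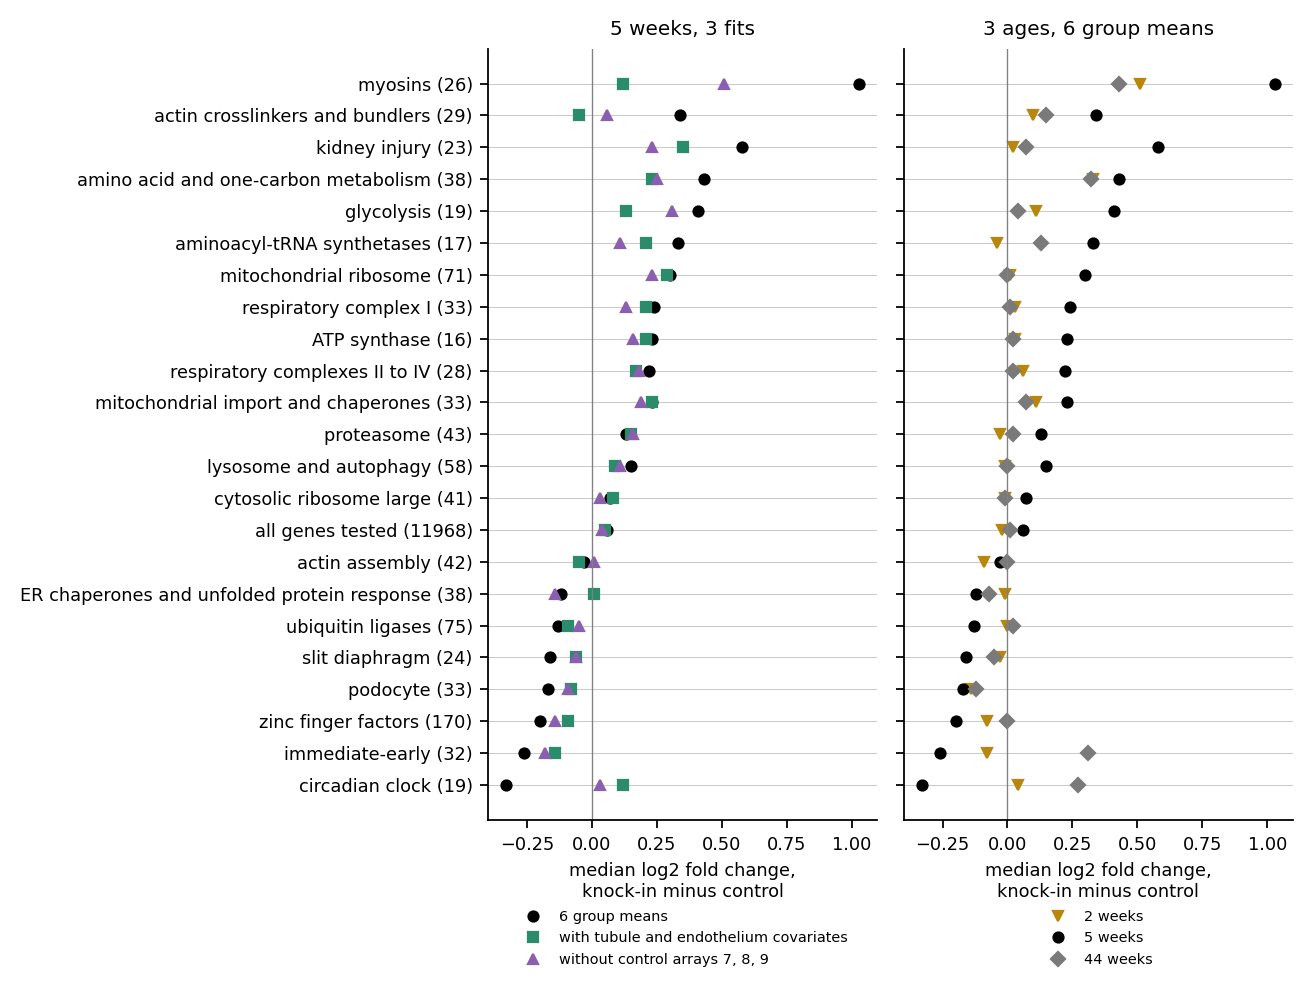
Median log2 fold change, knock-in minus control, of gene lists; numbers in brackets count the genes tested. The left panel gives the 5-week values in the fit of 6 group means, with covariates and without control arrays 7, 8 and 9; the right panel gives 2, 5 and 44 weeks. The mitochondrial ribosome keeps 0.29 of 0.30 with the covariates, while myosins go from 1.03 to 0.12.

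Genes near Actn4 on chromosome 7 were counted by gene order. Of the 150 tested genes on each side, 84 rose (28.0%) and 8 fell (2.67%), against 13.7% and 7.91% on other chromosomes and 17.8% and 7.36% on the rest of chromosome 7. With the covariates 12 of these 300 were called (4.0%), against 1.96% of the 611 on the rest of chromosome 7 and 0.752% on other chromosomes. The median difference of the 300 genes was 0.22, and 0.20 with the covariates, but -0.04 at 2 weeks and 0.01 at 44 weeks. Trappc6a, Prkd2, Dmpk, Coq8b, Prodh2 and Cox6b1, described above, are among the 12. For 2 of the 12 (16.7%), Dmpk and the predicted gene Gm38983, the 5-week control mean lies below the filter limit, as the dimmer group's does for 4 of the 84 rises (4.76%) and for 3.1% of all genes tested.

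**Figure D5:**
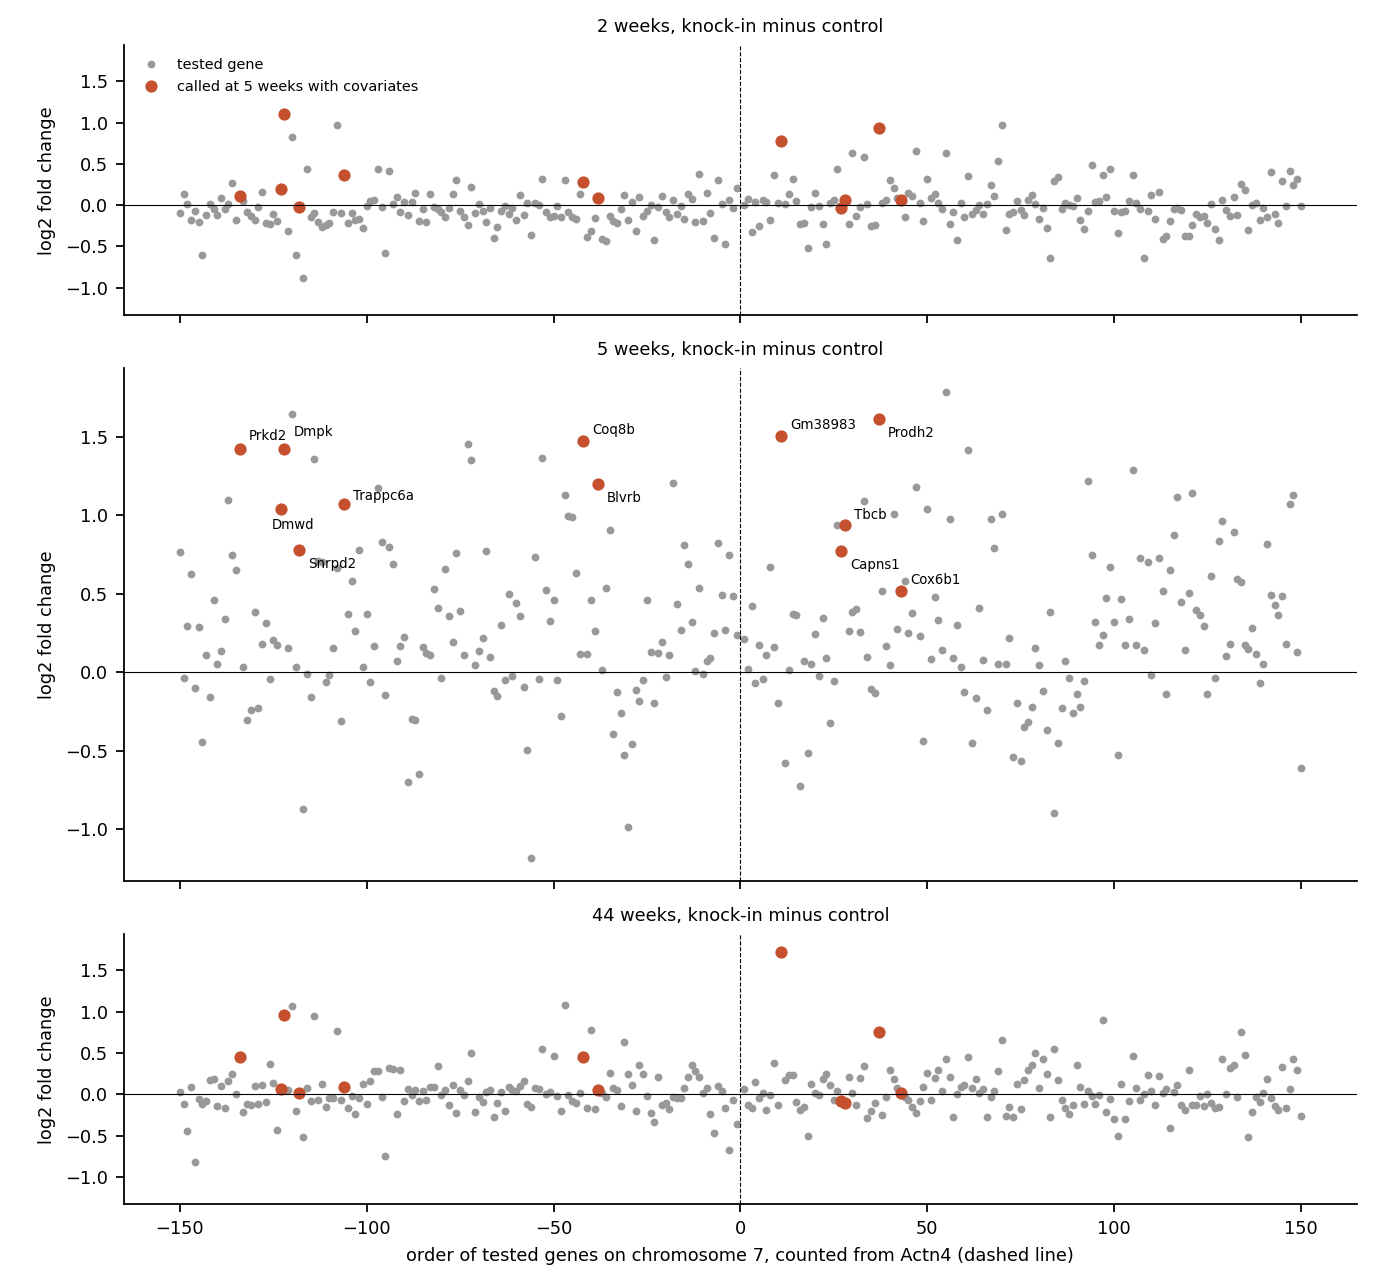
Log2 fold change, knock-in minus control, of tested genes on chromosome 7 in their order from Actn4 (dashed line), at each age; larger points passed at 5 weeks with the covariates. The 12 called genes within 150 positions include Prodh2 (1.61 at 5 weeks) and Dmpk (1.42).

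Few genes passed at the other ages. At 2 weeks 0 genes passed in limma (613 at an unadjusted p under 0.05, 5.12%), and at 44 weeks 3 passed (0.0251%, with 6.37% at an unadjusted p under 0.05). The genes called at 5 weeks had the same sign in 61.0% at 2 weeks and 64.4% at 44 weeks, against 55.7% and 56.7% of all genes tested. For the 1710 higher genes these shares were 53.5% and 65.9%, and for the 928 lower ones 75.0% and 61.6%. Of all genes called at 5 weeks 11% and 10.3% kept at least 50% of their size, against 28.4% and 28.0% of all genes. The median size at 5 weeks was 0.62 for the called genes and 0.28 for all genes. Most of the 2638 were not shown to differ between ages: the difference of the genotype effect passed for 3 genes against 2 weeks and 0 against 44 weeks. The genes that passed at 44 weeks were Glrx, Gm38983 and Igkv1-135, and Gm38983, 11 positions from Actn4, was also called at 5 weeks (1.51, against 1.72 at 44 weeks and 0.78 at 2 weeks). Its control mean at 5 weeks was 4.59, just below the filter limit, and its controls at 44 weeks lay between 4.39 and 4.72, so the size of these folds is uncertain.

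Prodh2 and Dmpk, both near Actn4, differed in the same direction at every age. The knock-in minus control difference of Prodh2 was 1.61 at 5 weeks, 0.94 at 2 and 0.75 at 44, without overlap at any age. With the covariates it was 1.10, 0.61 and 0.48. Proximal tubule marker means ran from 8.70 to 9.50 in controls and 9.39 to 10.06 in knock-ins at 2 weeks, and from 9.06 to 10.85 and 9.80 to 10.75 at 44 weeks. The tubule covariate, which also holds the distal markers, ran from 7.857 to 8.371 in controls and 8.248 to 9.095 in knock-ins at 2 weeks. At 44 weeks it ran from 8.208 to 9.465 and from 8.877 to 9.267. Arrays did not overlap for 2.9% of genes at 2 weeks and 2.74% at 44 weeks. Dmpk, with controls below or about at the filter limit at every age (3.91 to 4.70), differed by 1.42, 1.10 and 0.96, and at 44 weeks the knock-in arrays were 5.54, 5.38, 5.65 and 4.05, so that 1 array lay within the control range of 3.91 to 4.33. At 2 and 44 weeks neither passed in limma after adjustment.

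The difference between the 5-week and the 2-week genotype effect was itself tested, and 3 genes passed (0.0251%, with 18.7% at an unadjusted p under 0.05). Without control array 10 this number was 1521, without any of control arrays 6 to 9 or knock-in array 23 it was 1, and without knock-in array 25 or 26 it was 0 (2084 and 2111 at an unadjusted p under 0.05). For Mri1 the knock-in mean was 1.32 above the control mean at 5 weeks and 0.29 below it at 2 weeks, a difference of 1.62 (SE 0.242, limma adjusted p = 0.0125). Its values at 2 weeks were 8.26, 7.68, 7.73 and 7.93 in controls and 7.48, 7.85, 7.49 and 7.61 in knock-ins, and at 44 weeks all 8 arrays lay between 7.47 and 7.88. The 5-week controls, at 6.36 to 7.36, were thus below every other array of the series. The same held for Tdp1 except at control array 10 (6.92, against a lowest value of 6.67 elsewhere), with a difference between ages of 1.35 (SE 0.234, limma adjusted p = 0.0335). For Trip10 the difference was 1.13 (SE 0.193, limma adjusted p = 0.0335). Against 44 weeks 0 genes passed in limma (2335, 19.5%, at an unadjusted p under 0.05), and 1561 without control array 10.

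The genes that rose were shorter than those that fell. The median gene length was 14.5 kb for the 1710 higher genes, 30 kb for the 928 lower ones and 10.7 kb for the 101 higher genes called in both fits, against 22.6 kb over all genes tested. The median promoter GC content, with each gene given the highest value among its promoter windows, was 60.4% and 62.4% for higher and lower genes and 60.8% for all. A promoter was matched for 81.9%, 82.0% and 80.7% of these genes. The median level over all arrays was 8.18 and 9.21, against 7.94 for all.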

How the data were processed

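Podocyte polysomal RNA of 25 samples was amplified in 1 round with a NuGen kit, biotin-labelled and hybridized, per the labels' protocols. The authors deposited log2 values, 1 for each probe set on an array. The base is read from the values (1.86 to 13.62), and their summarization and normalization are not given in the sources used here. Array medians lay between 4.82 and 4.99. Of 45141 probe sets 28898 had 1 gene symbol in the platform annotation, 551 several and 15692 none used here; control probe sets (104) served as array measures. Each gene was represented by its brightest probe set (by mean), and the lowest 30% of genes (limit 4.603) were left out. The number of arrays limits the precision (median SE 0.169).

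Groups came from titles. Differences were fitted with limma 3.58.1 in R 4.3.3 (lmFit, eBayes) on 6 group means over all 25 arrays, 19 residual degrees of freedom, Benjamini-Hochberg adjusted p under 0.05, no minimum fold. A fit with the mean of the tubule markers and the mean of the endothelial markers as covariates describes genes beyond those RNAs. Array measures were compared by exact two-sided permutation tests. On simulated data with 200 changed genes of 11968, these fits recovered 85% and 84% of 2-fold changes and 22% and 19% of 1.41-fold changes, with 4.46% and 3.74% false calls. Noise in the simulation was drawn independently for each gene, so the simulated marker means were not tied to genotype. The real endothelial means at 5 weeks were 5.85 to 6.72 in controls and 6.80 to 7.20 in knock-ins. The 84%, 19% and 3.74% therefore do not show how the covariate fit performs on the real arrays.

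The genes and lists were chosen with earlier results of these data known. Named genes are Actn1 and Col1a1; the 12 rises and 12 falls with the smallest covariate p that did not overlap, stood in no other cell type's marker list and kept at least 50% of their size with covariates; up to 20 called with covariates; up to 4 of each list by p; and those called between ages. Smn1, Tmem120b, Spata2l, Slc26a4, Ccdc62, Mrpl18, Mrps27, Gm38983 and the 44-week calls, where outside this rule, and the 4 podocyte markers of the identity check were chosen after their values were seen. The nonspecific-probe measure, the podocyte-marker covariate, combined technical covariates, the shares of genes inside the knock-in range, the counts of genes with a group mean below the filter limit and the comparison with other ages were also chosen then. The letters searched for NRF1 and YY1 were shortened after longer forms had been searched and their shares seen, and the shares over all promoters rose with it. Alternatives covered scaling, filter, probe set, prior, weights, covariates and arrays left out. The sex covariate did not come from the labels, which give sex as unknown. It was inferred by splitting arrays on the mean signal of Y-linked genes (Ddx3y, Eif2s3y, Kdm5d and Uty, where present). Figures were drawn with matplotlib 3.10.9 in Python 3.11.15. Some items are not reported here.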

Additional observations from a re-analysis of the deposited data

Results flagged for a closer look

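Of 238 values or means tested within a group, 21 (8.82%) had 1 array far from the others, where chance gives about 1 in 20; 10 of the 21 were control array 10. There the highest control values were Rab25 at 6.13 (next 5.26), Coro1b at 10.43 (9.70), Tln1 at 10.34 (9.27), Mrps21 at 11.12 (10.14), Coq6 at 7.66 (6.72), Rpl23a at 12.65 (11.98), Rpl19 at 12.86 (12.34), Rps9 at 12 (11.63) and the Gapdh 3′ minus 5′ signal at 1.91 (1.15). Foxc2 was lowest there, at 12.07 (next 12.32). In control array 6 the red cell marker mean was 8.37 (next 6.65) and Tns1 10.87 (10.44). In control array 7 Ccdc62 was low at 5.57 (5.86) and Nfatc1 high at 8.34 (7.76).

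In knock-in array 26 the parietal epithelium mean was 8.38 (next 8.00), the 18S signal was low at 9.64 (10.50) and Atg2a low at 8.09 (8.27). In knock-in array 23 Sars was 10.67 (10.42), Clu 10.08 (9.88) and Zfp512 low at 7.83 (8.34). In knock-in array 25 Lamb2 was 9.53 (9.11).

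The genotype effect at 5 weeks exceeded that at 2 weeks for Mri1 by 1.62, for Tdp1 by 1.35 and for Trip10 by 1.13 (log2, limma interaction contrast over all genes tested).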

How the results depend on the processing

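No paired analysis was run, because the array titles name no pairs and the groups share no array number. Whether arrays were paired by litter or processing is not known. The 2638 genes called at 5 weeks became 4821 with array weights, 500 with only the 5-week arrays, 182 with the tubule covariate, 143 with the endothelial one, 1781 with the actin control, 19 with 18S, 0 with nonspecific probes (2448 at an unadjusted p under 0.05 in limma) and 1 without control arrays 7, 8 and 9, and from 1386 to 4077 leaving out 1 array. The 107 genes called with both covariates became 66 after quantile normalization, 42 with arrays centred on their medians, 41 without filter, 190 with the 50% filter, 30 with the mean of all probe sets, 69 with the most variable probe set, 1378 with array weights, 0 with only the 5-week arrays (647 unadjusted), 182 with the tubule covariate alone, 3, 10 and 0 with the actin control, 18S and nonspecific probes added (963 unadjusted for the last), and 9 without control arrays 7, 8 and 9; leaving out 1 array gave 3 to 1742.

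The 3 genes whose effect differed between 5 and 2 weeks became 1 after quantile normalization, 1 with arrays centred, 1 with the trended prior, 2441 with array weights, 6 with the sex covariate, and 0 with only the arrays of those ages (2138 unadjusted), with 18S (1255 unadjusted) or without control arrays 7, 8 and 9 (835 unadjusted); leaving out 1 array gave 0 to 1521. Against 44 weeks the 0 became 2041 with array weights, and 0 to 1561 leaving out 1 array. Of 13 exact tests of array measures 7 passed, and 0 to 9 leaving out 1 array.

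Reversed signs were Actn1 with the tubule (-0.08) and endothelial (-0.10) covariates, Slc26a4 with those (-0.61 and -0.71) and without control arrays 7, 8 and 9 (-0.21), Col1a1 without the same arrays (-0.09), and, with the most variable probe set, Pdlim5 (0.21), Idh2 (-0.32), Mdm2 (0.47) and Nfatc1 (0.17); Psmd9 was -0.22 with the mean of all probe sets. The cause was not tested. Genes near the filter limit, such as Lmx1b and Dmpk, are the least certain in level.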
